A study of Mus musculus with 4 samples.

Results

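The glypicans and syndecans are the cell-surface proteoglycans that carry heparan sulfate, and their transcripts were followed here in mouse forelimbs cultured with or without cyclopamine. The genes were chosen by name, as the 6 glypican genes Gpc1 to Gpc6 and the 4 syndecan genes Sdc1 to Sdc4, and all 10 were found among the 17568 genes of the deposited table. Forelimbs came from Swiss Webster mouse embryos of wild-type genotype, aged E10.25 with 31 to 34 somites, and were cultured in control medium or with added cyclopamine, a plant alkaloid that inhibits the Hedgehog signal transducer Smoothened. RNA was sequenced on the SOLiD platform, with 2 libraries in each group. How long the limbs were cultured, at which dose and in which vehicle, and how many were pooled in a library, was not stated in any source used here. The libraries are described as biological replicates, and p-values rest on the spread between them only. In the limma test used here, the variance of a gene also draws on that of other genes of similar level.

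Heparan sulfate is a long sulfated sugar chain built on core proteins in the Golgi. Glypican core proteins are held on the outer face of the membrane by a glycosylphosphatidylinositol anchor, whereas syndecan core proteins cross the membrane and end in a short cytoplasmic tail. Both bind Hedgehog, FGF, WNT and BMP ligands through their chains, and some glypicans also bind Hedgehog through the core protein. In the limb bud these ligands pass between the ridge ectoderm, the posterior mesenchyme and the rest of the bud.

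Chromosome positions are given in mm10, with gene models from GENCODE vM21. Gpc4 (chromosome X, 52053021 to 52165252) and Gpc3 (chromosome X, 52272426 to 52613950) are direct neighbours 107.17 kb apart, both on the minus strand. Gpc5 (chromosome 14, 115092215 to 116525179) and Gpc6 (chromosome 14, 116925315 to 117976544) are likewise neighbours, 400.14 kb apart on the plus strand, and they span 1432.96 and 1051.23 kb. The other glypican genes lie alone, Gpc1 on chromosome 1 (92831645 to 92860779) and Gpc2 on chromosome 5 (138273655 to 138280005). Each syndecan gene has a chromosome to itself, with Sdc1 on chromosome 12 (8771323 to 8793715), Sdc2 on chromosome 15 (32920723 to 33034935), Sdc3 on chromosome 4 (130792537 to 130826319) and Sdc4 on chromosome 2 (164424247 to 164443887). The main coding transcript of every syndecan gene has 5 exons, and that of a glypican gene has 8 to 10.

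Exons of 4 of the genes overlap those of another annotated gene, and no source used here says if strand entered the counting. Gpc2 shares 55.6% of its exon bases with the gene model Gm43720 on the same strand, which has no row in the deposited table. How reads on the shared bases were counted is not known, so the values of Gpc2 are uncertain. Gpc1 shares 18.9% with Ankmy1 on the opposite strand, and Ankmy1 was listed at 0.0735 to 0.413 CPM. The overlaps were 2.4% for Gpc5 and at most 6.93% for any antisense model at Sdc3.

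RefSeq promoter windows (build GRCm38.p6, 250 bases before to 50 after the annotated start) were found for 7 of the 10 genes, namely Gpc2, Gpc3, Gpc4, Gpc5, Sdc1, Sdc3 and Sdc4. The windows below belong to the genes at the extremes of level described further on, Gpc3, Sdc1 and Gpc5, and to Gpc4, the X-linked neighbour of Gpc3. Capitals mark GC boxes (GGGCGG or its reverse complement CCGCCC), and each sequence reads 5′ to 3′ on the strand of the gene.
Gpc3, chrX:52613925-52614224, minus strand: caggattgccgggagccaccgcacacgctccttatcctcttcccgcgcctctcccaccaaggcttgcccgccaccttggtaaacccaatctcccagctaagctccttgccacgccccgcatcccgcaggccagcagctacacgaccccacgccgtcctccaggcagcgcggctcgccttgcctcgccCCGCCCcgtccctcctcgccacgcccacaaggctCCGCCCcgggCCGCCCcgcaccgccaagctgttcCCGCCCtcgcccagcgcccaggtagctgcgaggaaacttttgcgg
Gpc4, chrX:52164874-52165173, minus strand: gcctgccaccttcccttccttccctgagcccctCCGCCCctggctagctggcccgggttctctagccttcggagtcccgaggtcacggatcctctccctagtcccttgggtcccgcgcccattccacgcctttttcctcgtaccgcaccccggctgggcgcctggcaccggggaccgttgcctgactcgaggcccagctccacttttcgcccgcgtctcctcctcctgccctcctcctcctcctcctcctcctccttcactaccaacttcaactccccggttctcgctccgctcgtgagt
Gpc5, chr14:115091965-115092264, plus strand: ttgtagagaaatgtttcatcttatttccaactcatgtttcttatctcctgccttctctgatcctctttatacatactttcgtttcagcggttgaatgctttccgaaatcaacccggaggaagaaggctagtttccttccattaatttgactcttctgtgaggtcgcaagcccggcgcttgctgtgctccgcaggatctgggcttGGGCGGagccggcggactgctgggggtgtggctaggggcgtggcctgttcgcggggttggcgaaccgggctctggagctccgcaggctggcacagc
Sdc1, chr12:8771146-8771445, plus strand: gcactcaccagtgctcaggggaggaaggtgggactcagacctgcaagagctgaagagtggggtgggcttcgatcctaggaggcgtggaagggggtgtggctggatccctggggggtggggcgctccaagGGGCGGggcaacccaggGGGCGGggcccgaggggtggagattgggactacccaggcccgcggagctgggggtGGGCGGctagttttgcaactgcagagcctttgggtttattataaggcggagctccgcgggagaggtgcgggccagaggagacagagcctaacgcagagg
A GC box occurred in all 7 windows, against 35.7% of the 32851 RefSeq windows of the same length, and Gpc3 and Sdc4 held 4 each, the most. GC content ran from 54.7% (Gpc5) to 77.7% (Sdc3), against a median of 52.7% over all windows. The number of CpG dinucleotides ran from 14 (Sdc1) and 17 (Gpc5) to 30 (Gpc3) and 44 (Sdc3), against a median of 7. The GLI consensus GACCACCCA, searched on both strands, matched in 0 of the 7 windows and in 0.253% of all windows. It matched in 0 of the windows of Ptch1 and Hhip as well.

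Sequencing depth was 9779589 to 13555492 gene-assigned reads a library, and values are CPM, reads per 1000000 after the authors' scaling. Markers matched the labelled tissue, with Tbx5, the forelimb T-box gene, at 193 to 226 CPM and its hindlimb counterpart Tbx4 at 5.51 to 9.90 CPM. The Hedgehog target Gli1 fell from 56.2 and 56.7 CPM in the controls to 8.05 and 4.70 CPM in cyclopamine, with a difference of -3.10 on the log2 scale (SE 0.23, limma adjusted p = 4.32e-06). Ptch1, the Hedgehog receptor gene, fell by 1.44 on the log2 scale (SE 0.19, limma adjusted p = 0.00216). Hhip, a Hedgehog-binding inhibitor gene, differed by -1.04 (SE 0.29) and did not pass (limma adjusted p = 0.289). So all 3 targets were lower in cyclopamine in the libraries in which the proteoglycan genes were measured, and 2 of them passed the test.

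The comparison asked whether transcripts of the core proteins that bind Hedgehog and other ligands differ when Hedgehog signalling is inhibited. No glypican or syndecan gene passed the test. In limma 0 of the 10 were called at an adjusted p under 0.05, against 0.28% of the 13568 genes tested, and 0 had an unadjusted p under 0.05, against 5.82% of genes. The quasi-likelihood test of edgeR and DESeq2, both on recovered reads, also called 0 of 10, against 0.295% and 0.383% of genes. The authors' deposited table, at a false discovery rate under 0.05, marks 0 of the 10 and 0.455% of its genes. The limma adjusted p was 0.9996 for each of the 10, and the smallest unadjusted p was 0.256, for Sdc2. The number of genes called among all tested was 38 and depended on the libraries, at 79 without control 1, 43 without control 2, 122 without cyclopamine 1 and 84 without cyclopamine 2, and 0 of them in any of these fits were glypican or syndecan genes. Each such fit leaves a group with a lone library, which is assumed to vary like the other group.

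Differences between the treatment means were small in both families. Of the glypicans, 4 were higher and 2 lower in cyclopamine, with a median log2 fold change of 0.10, and all 4 syndecans were lower, with a median of -0.15. These directions rested on single libraries for 6 genes: Gpc1 (-0.12) and Gpc5 (-0.18) turned negative without control 2 and Gpc4 (-0.066) without control 1, Gpc2 (0.13) turned positive without cyclopamine 1, and Sdc3 and Sdc4 turned positive without control 1. The median over all genes tested was 0.00, with 51.0% of genes higher. Absolute log2 differences of the 10 genes had a median of 0.12, against 0.14 over all genes tested, and the largest was 0.19. The 95% interval of every one of the 10 lay inside -1 to 1 on the log2 scale, so a doubling or halving was outside each. Without Gpc5 the bounds ran from -0.54 to 0.54, and differences inside an interval were not resolved with 2 libraries a group. These intervals are not adjusted for the number of genes. The adjusted test is stricter, and it did not call Hhip at -1.04.

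**Figure D1:**
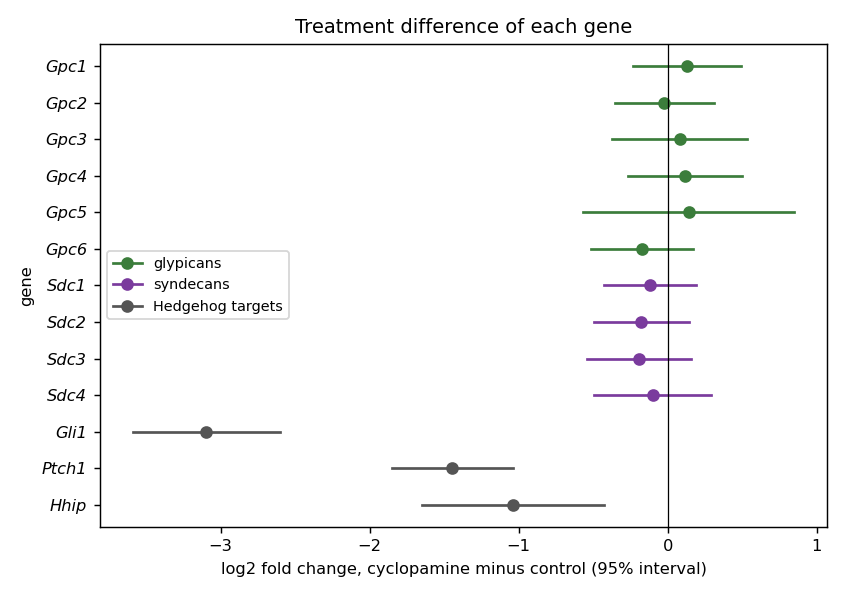
Log2 fold change of each gene (x axis, cyclopamine minus control, on the log2(CPM + 0.5) scale) with the limma 95% interval as a bar, for glypicans, syndecans and 3 Hedgehog target genes. All 10 proteoglycan intervals cross 0 and lie between -0.57 and 0.85, whereas those of Gli1, Ptch1 and Hhip lie below 0.

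Among the glypicans, Gpc3 was the most abundant transcript, in CPM and per length. Gpc3 encodes a core protein known to bind Hedgehog and to compete with its receptor, and human loss of the gene causes an overgrowth syndrome. It stood at 1519 and 1366.5 CPM without cyclopamine and at 1535 and 1517 CPM with it. The groups overlapped, and control 2 was the lowest library. The log2 fold change of Gpc3 was 0.08 (SE 0.21, 95% interval -0.37 to 0.54), and it ran from 0.0064 to 0.16 when a library was left out. Its neighbour Gpc4, a core protein known from WNT and FGF signalling, stood at 29.0 and 37.4 CPM without cyclopamine and at 37.6 and 33.9 CPM with it. Here control 1 was the lowest library, and the log2 fold change was 0.12 (SE 0.18, 95% interval -0.27 to 0.50).

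Gpc6 and Gpc5, the chromosome 14 pair, encode core proteins for which binding to Hedgehog has also been described. Gpc6 stood at 164.6 and 202 CPM without cyclopamine and at 149 and 177 CPM with it. Its second library was the higher in both groups, and the groups overlapped (log2 fold change -0.17, SE 0.16, 95% interval -0.51 to 0.17). That difference ran from -0.32 to -0.022 when a library was left out. Gpc5 was the lowest of the glypicans, with 4.64 and 2.79 CPM without cyclopamine and 3.94 and 4.13 CPM with it, which rest on 45, 38, 50 and 51 reads. Its interval was the widest of the 10, from -0.57 to 0.85 (log2 fold change 0.14, SE 0.33).

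The remaining glypicans are best known from neural tissue. Gpc1, which binds FGFs and is prominent in the developing brain, stood at 139.8 and 98.9 CPM without cyclopamine and at 135 and 123 CPM with it. Both cyclopamine libraries lay between the controls, with a log2 fold change of 0.13 (SE 0.17, 95% interval -0.23 to 0.49). Gpc2, known as a glypican of developing neurons, stood at 87.1 and 87.4 CPM without cyclopamine and at 77.1 and 95.6 CPM with it. Its controls were nearly equal and lay between the cyclopamine libraries, and its log2 fold change of -0.02 (SE 0.16, 95% interval -0.35 to 0.31) was the smallest of the 10.

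The syndecans were all lower on average in cyclopamine, by amounts that the test did not separate from 0. Sdc1, the main syndecan of epithelia, stood at 164.8 and 171 CPM without cyclopamine and at 158 and 151 CPM with it. Sdc2, a syndecan of mesenchymal cells, stood at 73.0 and 71.0 CPM without cyclopamine and at 62.5 and 64.9 CPM with it. For both genes every cyclopamine library was below every control, which was the case for 15.8% of all genes tested. The log2 fold change was -0.12 (SE 0.15, 95% interval -0.43 to 0.19) for Sdc1 and -0.18 (SE 0.15, 95% interval -0.49 to 0.14) for Sdc2. Replicates differed on that scale by at most 0.061 for Sdc1 and 0.054 for Sdc2. Both are less than the SE, which also draws on genes of similar level.

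Sdc3 and Sdc4 overlapped between groups. Sdc3, a syndecan of neural tissue and of cartilage-forming limb mesenchyme, stood at 104.5 and 77.8 CPM without cyclopamine and at 76.4 and 81.4 CPM with it. Control 1 stood above the other libraries, and the log2 fold change of -0.19 (SE 0.17, 95% interval -0.54 to 0.16) became 0.020 without it. Without control 2 it was -0.40, with a limma adjusted p = 0.79, and this was the only fit in which any of the 10 genes had an unadjusted p under 0.05. Sdc4, a widely made syndecan of focal adhesions, stood at 42.3 and 31.1 CPM without cyclopamine and at 35.7 and 32.1 CPM with it. Control 1 was again the highest, and the log2 fold change of -0.10 (SE 0.19, 95% interval -0.49 to 0.29) became 0.12 without it. No syndecan was higher in both cyclopamine libraries than in both controls, and neither was any glypican, against 16.8% of genes tested.

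**Figure D2:**
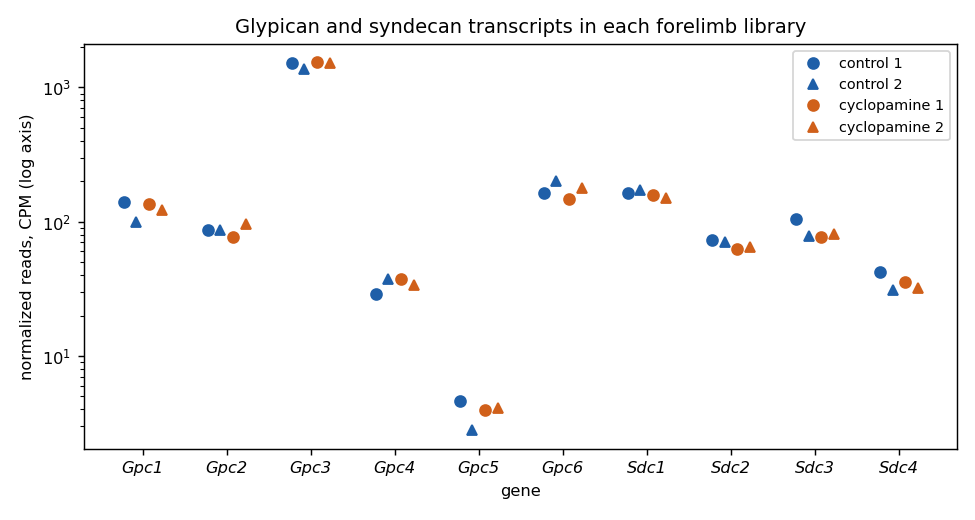
CPM of the 10 genes in each library (log y axis), with controls in blue, cyclopamine in orange, replicate 1 as circles and replicate 2 as triangles. Gpc3 lies above 1000 CPM in all libraries and Gpc5 below 5 CPM, and the groups are separate only for Sdc1 and Sdc2.

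Replicate libraries differed for these genes about as they did for genes in general. On the log2 scale the larger of the 2 differences between replicates exceeded the difference between treatment means for 8 of the 10 genes, all but Sdc1 and Sdc2, and for 79.0% of all genes tested, so this count is no result about the family. Single libraries also spread more than means of 2 do. The ratio of control 2 to control 1 was 0.707 for Gpc1 (95% interval 0.655 to 0.763), 0.735 for Sdc4 (0.640 to 0.844), 0.744 for Sdc3 (0.682 to 0.812) and 1.23 for Gpc6 (1.15 to 1.31). These intervals are exact binomial ones and cover counting error only. The interval of the control ratio lay wholly to one side of 1 for 7 of the 10 genes, and that of the cyclopamine ratio for 3. Over all genes tested the shares were 45.0% and 44.8%, and among genes with at least 1000 reads in the pair they were 62.6% and 62.9%.

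**Figure D3:**
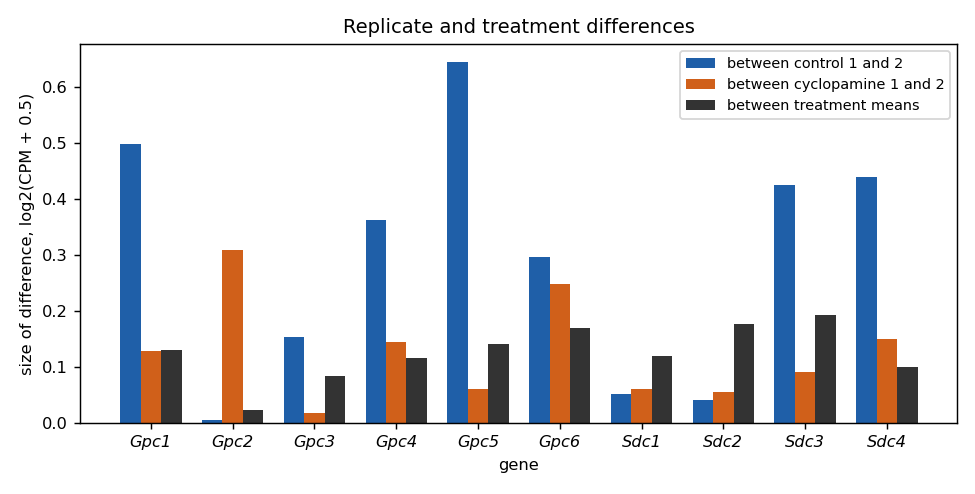
Size of the difference on the log2(CPM + 0.5) scale (y axis) between the control libraries, between the cyclopamine libraries and between the treatment means, for each gene. The treatment bar is the tallest for Sdc1 and Sdc2, and a replicate bar is the tallest for the other 8 genes.

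Levels of different genes were compared as CPM per kb of annotated exon. Gpc3 reached 552 ± 29.4 CPM per kb (SD, n = 4 libraries), above 99.7% of the 12767 tested genes that have an annotated length, whose median was 6.25. Sdc1 followed at 42.3 ± 2.25 (SD, n = 4), and its range did not meet that of Gpc6, at 26.9 ± 3.51. Gpc6, Gpc1 (24.1 ± 3.53), Gpc2 (20.3 ± 1.77) and Sdc2 (19.2 ± 1.41) formed a run in which neighbours in the order overlapped over libraries. Sdc3 (14.2 ± 2.20), Sdc4 (13.9 ± 1.99) and Gpc4 (13.0 ± 1.51) formed another such run. Gpc5 was the lowest at 0.871 ± 0.176, above 13.5% of genes. Gpc3, Sdc1 and Gpc5 held the first, second and last place in each of the 4 libraries. The order was the same with the longest transcript as gene length, and 7 to 10 of the genes kept their place when a library was left out.

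**Figure D4:**
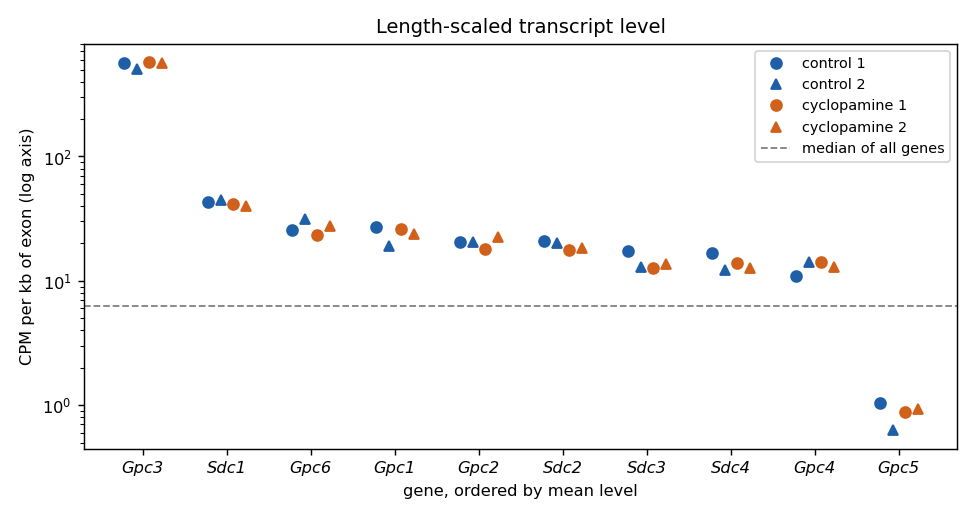
Level in CPM per kb of exon (log y axis) of each gene in each library, ordered by the mean, with the median of all tested genes as a dashed line. Gpc3 is at 508 or above in every library, 8 genes lie between 10 and 50, and Gpc5 is below the median of 6.25.

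The leading gene of each family was the same in all 4 libraries. Per kb of exon, Gpc3 took 86.9% and 85.5% of the glypican signal in the controls and 87.4% and 86.6% in cyclopamine. Sdc1 took 44.1% and 49.7% of the syndecan signal in the controls and 48.2% and 47.1% in cyclopamine, ahead of Sdc2 at 20.6% to 22.3% over all libraries. Gpc3 stood above its neighbour Gpc4 by a ratio of 36.0 to 51.6, with control 2 the lowest and control 1 the highest. Gpc6 took 3.55% to 5.30% of the glypican signal, and its ratio to its neighbour Gpc5 was 24.6 and 50.2 in the controls and 26.1 and 29.6 in cyclopamine. Summed CPM of the 6 glypican genes was 1944 and 1795 in the controls and 1937 and 1950.0 in cyclopamine, and the groups overlapped. Summed CPM of the 4 syndecan genes was 384.6 and 350.7 in the controls and 332 and 329.5 in cyclopamine, without overlap. The ratio of glypican to syndecan signal per kb was 6.63 and 6.59 in the controls and 7.61 and 7.73 in cyclopamine, without overlap. This ratio is no separate observation, as its denominator is the syndecan signal and the glypican signal per kb overlapped. Among single genes tested, 15.8% were separate with cyclopamine lower and 16.8% with cyclopamine higher. With 2 libraries a group an exact permutation test cannot go below p = 0.333, so these sums and ratios are descriptions.

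No gene for the enzymes and carriers that build and edit heparan sulfate passed the test. Of 38 listed genes 33 were tested, and 0 passed in limma, with 1 at an unadjusted p under 0.05. Over all genes tested these shares were 0.28% and 5.82%. In edgeR or DESeq2, 0 of the 33 were past the adjusted threshold. Of the 33, 19 were higher and 14 lower, with a median log2 fold change of 0.07 against 0.00 over all genes. By step, the median was -0.04 for the 7 genes of precursor supply, 0.01 for the 6 genes that build the linker to the core protein, 0.07 for the 5 genes of chain polymerisation, 0.21 for the 11 genes of chain modification and 0.06 for the 4 genes of extracellular editing. The median for chain modification depends on the filter. Hs3st4 and Ndst3 averaged 0.57 and 0.93 CPM in the controls and reached the filter only through cyclopamine, at 1.47 and 1.28 CPM. Hs6st3, Hs3st5 and Hs3st6, lower on average in cyclopamine, and Ndst4, higher, were below the filter and not tested.

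**Figure D5:**
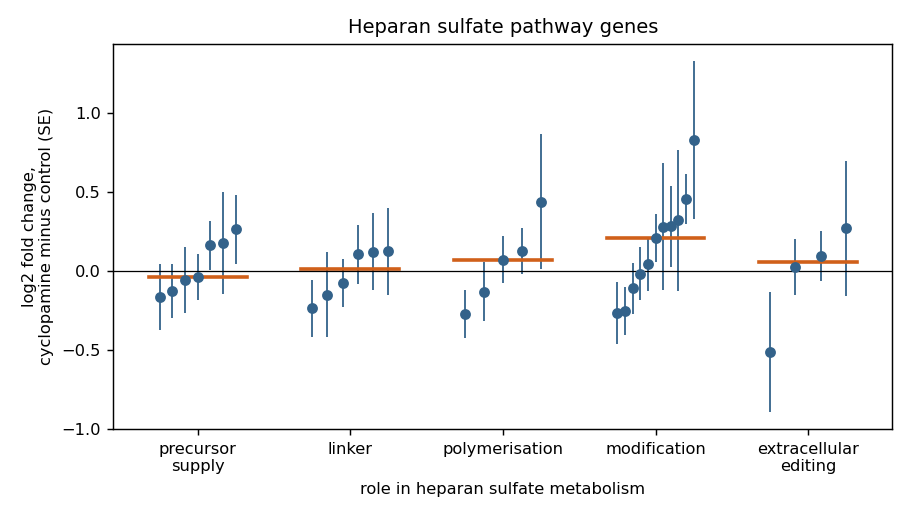
Log2 fold change (y axis, cyclopamine minus control, bars are SE) of the 33 tested heparan sulfate genes by role, each point a gene and each orange line the median of its group. The medians lie between -0.04 and 0.21, and points fall on both sides of 0 in every role.

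Hs6st1, which encodes a sulfotransferase acting on glucosamine residues of the chain, had the smallest p of the list. It stood at 45.9 and 39.2 CPM without cyclopamine and at 59.6 and 57.4 CPM with it. The groups did not overlap, as was the case with cyclopamine higher for 16.8% of genes tested. The log2 fold change of 0.46 (SE 0.16) did not pass (limma adjusted p = 0.585). Next came Extl3 (-0.27, SE 0.15), whose product starts the chain, Hs3st4 (0.83, SE 0.50), Hs2st1 (-0.25, SE 0.15) and Hs3st3b1 (0.21, SE 0.15), which encode further sulfotransferases, and Hpse (-0.51, SE 0.38), which encodes the chain-cutting heparanase. Hs3st4 rested on 4 and 10 control reads and 26 and 11 cyclopamine reads. The chain polymerase gene Ext1 measured 112 and 103.6 CPM without cyclopamine and 123 and 113 CPM with it, and Sulf2, which encodes a sulfatase that edits chains outside the cell, 381 and 356 CPM against 396 and 391 CPM. Ext1 and Sulf2 were named after their values were seen.

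Genes acting on or beside the core proteins did not pass either. In the list for release from the membrane, 0 of 10 passed in limma, against 0.28% of genes tested. An unadjusted p under 0.05, found for 5.82% of genes tested, was reached by 1 of the 10. That gene was Notum, whose product removes lipid from WNT proteins and was first described as cutting glypican anchors. Notum stood at 13.9 and 12.5 CPM without cyclopamine and at 8.60 and 8.43 CPM with it (log2 fold change -0.60, SE 0.23, limma adjusted p = 0.661). The next smallest p-values were those of Gpld1 (0.39, SE 0.22), an anchor-cutting phospholipase gene, and Mmp9 (0.83, SE 0.54), a matrix protease gene. Mmp9 rested on 6 and 7 control reads and 8 and 33 cyclopamine reads, so on a single library. It averaged 0.57 CPM in the controls and reached the filter only through cyclopamine, at 1.65 CPM. Among 6 other carriers of heparan sulfate 0 passed and 0 had an unadjusted p under 0.05, with Col18a1 at -0.16 (SE 0.15), Tgfbr3 at -0.11 (SE 0.16) and the agrin gene Agrn at -0.07 (SE 0.16). Among 7 cytoplasmic partners of syndecans the counts were 0 and 0, with Prkca, a protein kinase C gene, at 0.42 (SE 0.24), Tiam1 at -0.20 (SE 0.16) and Synj2bp, a PDZ protein gene whose tie to syndecans is uncertain, at -0.17 (SE 0.16).

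Markers of cell types known for some of these proteoglycans were measured beside them. In bulk samples, fewer cells of a type and less RNA per cell cannot be told apart. The marker lists were chosen with earlier results of these data known. Over all genes tested, 0.28% were called in limma and 5.82% had an unadjusted p under 0.05. Of 12 neural markers 10 were tested and 7 fell in limma, with Ina and Neurod4 at 0 reads in both cyclopamine libraries. Of these 7, Ina, Myt1 and Pou3f2 reached the filter only through the controls. They averaged 2.99, 3.89 and 5.05 CPM there, and 0, 0.20 and 0.55 CPM in cyclopamine. The sum over all 12 was 124.5 and 151 CPM without cyclopamine and 75.4 and 66.6 CPM with it, of which Dcx, which did not pass, made up 68.0 and 56.6 CPM and then 58.5 and 47.9 CPM. The count of neural calls depended on the setting, with 3 under plain total scaling, 5 in edgeR and 6 in DESeq2. It was 8 with a replicate block, where 351 of all genes were called. It was 0 without the filter and 0 without the intensity trend, where 2 and 0 of all genes were called. Gpc2, Gpc1 and Sdc3, known from neural tissue, had the values given above in the same libraries. Of 10 ectoderm markers, the cells in which Sdc1 is best known, 0 passed and 1 had an unadjusted p under 0.05. Their sum was 443 and 335 CPM without and 470.5 and 345 CPM with cyclopamine. Of 8 cartilage markers 5 were tested, 0 passed and 1 had an unadjusted p under 0.05, with sums of 296 and 247 CPM against 279 and 308 CPM. Limb mesenchyme markers summed to 1768 and 1852 CPM against 1791 and 2008 CPM, with 0 of 10 past the threshold. Of these 10, 6 were higher and 4 lower on average. The 2 with an unadjusted p under 0.05 were both lower, Fgf10 (log2 fold change -0.60) and Hoxd10 (-0.47). Endothelial (7 genes), erythroid (6), macrophage (6), myoblast (5) and hindlimb (3) markers had 0 genes past the threshold. All 6 erythroid markers were nevertheless higher on average in cyclopamine, 5 of them at an unadjusted p under 0.05, with a median log2 fold change of 0.83 and sums of 1322 and 612 CPM against 2160 and 1268 CPM. All 7 endothelial markers were higher too, 1 of them at an unadjusted p under 0.05, with a median of 0.25. All 5 myoblast markers (median 0.33) and 3 hindlimb markers (median 0.18) had positive log2 fold changes, with 0 at an unadjusted p under 0.05. By mean CPM Myf5 was lower in cyclopamine, at 2.48 against 2.76 CPM. Myod1 averaged 0.92 CPM in the controls and reached the filter only through cyclopamine, at 1.97 CPM. Of the 6 macrophage markers 2 had a positive and 4 a negative log2 fold change. The part of any of these cell types in the proteoglycan values was not tested.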

How the data were processed

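Per the submitters' processing notes, the build was mm10 and the tools were HTSeq 0.5.4p5, TopHat2 2.0.9, edgeR 3.4.2, SAMtools and Bowtie, listed without their roles. The deposited table holds a signal per gene and library that the authors scaled to reads per 1000000 of an effective library size (CPM). Every value was a whole multiple of the worth of a single read (100% of values, within 0.01 of a read), so reads were recovered. A read is worth 0.0735 to 0.103 CPM, and the floor of 3 reads is 0.22 to 0.31 CPM. The authors' deposited comparison table gives log2 fold changes and p-values per gene, with the test not stated.

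Here limma 3.58.1 in R 4.3.3 was run on log2(CPM + 0.5) with an intensity trend, on the 13568 genes whose mean reached 1 CPM. Fold changes on that scale are too small for genes near the floor. Tests were two-sided, with Benjamini-Hochberg adjustment across all genes fitted and a threshold of 0.05, and intervals were not adjusted. Alternatives were edgeR 4.0.16 and DESeq2 1.42.0 on recovered reads, other scalings, filters, pseudocounts and variance models, a replicate block, and leaving out each library. The fit was also run on simulated counts in which all genes shared the same spread beyond counting. This does not test its variance model on these data. Lengths came from GENCODE vM21, with exons joined.

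The members and lists were chosen with earlier results of these data known. Named genes were the members, 3 Hedgehog targets, and in each list those past the threshold or with the smallest p (3, or 6 for heparan sulfate genes). Of the marker lists, counts, sums and some medians are given, with a few genes named, some of them to check the tissue. Older symbols were sought in RefSeq, and 2 listed genes, Hs3st2 and Matn4, had no row matched.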

Additional observations from a re-analysis of the deposited data

How the results depend on the processing

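Under all 14 alternatives 0 glypican or syndecan genes were called, and the smallest adjusted p of any of them was 0.626 (limma with a replicate block). The filter at a mean of 5 CPM removed Gpc5, leaving 139 combinations of gene and setting. Direction was the same in 133, and 6 reversed, each when a library was left out. Over those fits the log2 fold change ran from -0.12 to 0.38 for Gpc1 (lowest without control 2), -0.18 to 0.13 for Gpc2 (highest without cyclopamine 1), -0.066 to 0.30 for Gpc4 (lowest without control 1), -0.18 to 0.46 for Gpc5 (lowest without control 2), -0.40 to 0.020 for Sdc3 and -0.32 to 0.12 for Sdc4 (both highest without control 1). Gpc3 (0.0064 to 0.16), Gpc6 (-0.32 to -0.022), Sdc1 (-0.15 to -0.090) and Sdc2 (-0.20 to -0.15) reversed in none. The number of genes called among all tested went from 38 to 20 with plain total scaling, 2 without a filter, 0 in limma when the intensity trend was dropped (837 genes had an unadjusted p under 0.05, with 40 called by edgeR and 52 by DESeq2), 351 with a replicate block, and 43 to 122 when a library was left out. The cause was not tested. The replicate numbers are tied to no litter or day in the labels, and same-numbered libraries deviated together with a correlation of 0.274 across genes. With the replicate block 1 heparan sulfate gene, Hs6st1, was called (adjusted p = 0.0467). Gpc3 made up 86.6% of glypican signal per kb on average and 77.8% without division by length, and Sdc1 47.3% of syndecan signal and 50.2% with the longest transcript as length. Depth limits Gpc5 most, at 38 to 51 reads a library.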
